A study of Homo sapiens with 12 samples.

Results

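The genes described here encode the initiation and elongation factors of cytoplasmic protein synthesis, with the proteins that bind, inhibit or modify those factors. They were taken from the gene counts of HL60 cells by symbol, as every name that starts with EIF or EEF and a digit, without the EIF2AK kinases, names with a hyphen and pseudogenes. The table held 235 such names among 59251 genes, and 65 of them were members after 159 pseudogene names, 7 names with a hyphen and 4 EIF2AK names were left out. EIF4EBP1, EIF4EBP2 and EIF4EBP3 end like pseudogene symbols but are genes, and were kept. HL60 is a human myeloid leukemia line without the PML-RARA fusion, and all 4 groups come from that 1 line. RNA-Seq was done after 48 h on 3 libraries each of non-treated cells, of cells given 1 µM all-trans retinoic acid (ATRA), of cells given 1 µM palbociclib, an inhibitor of the kinases CDK4 and CDK6 (CDK4/6i), and of cells given 1 µM of both drugs (CDK4/6i+ATRA). The submitters label the 3 libraries of a group as biological replicates.

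Translation starts when eIF2 brings the initiator tRNA to the small ribosomal subunit, where eIF1, eIF1A, eIF3 and eIF5 gather. The cap-binding complex eIF4F, made of eIF4E, the scaffold eIF4G and the helicase eIF4A, recruits this assembly to the 5′ end of an mRNA, and the 4E-BP proteins block it by occupying eIF4E when the kinase mTORC1 is inactive. After the start codon is found, eIF5B joins the large subunit, eEF1A delivers each aminoacyl-tRNA, the eEF1B subunits reload eEF1A with GTP, and eEF2 moves the ribosome by a codon. Many mRNAs for elongation factors carry a terminal oligopyrimidine (TOP) tract, a cytosine followed by a run of C and T at their first bases, through which mTORC1 controls their translation.

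Total counts per library ranged from 12230923 to 18679544, and the smallest 3 libraries were those of CDK4/6i+ATRA. Levels are given as CPM, counts divided by the library's total after TMM scaling, which sets libraries to a common scale. Levels of different genes are compared only as CPM per kilobase of the deposited gene length. For the 6 members also listed on an alternate contig, that length exceeds the exon bases on the main chromosome, for example 884 for EEF1B2 and 772 for EIF3K. Their values per kilobase are therefore too low. Each comparison is a log2 fold change tested with edgeR's quasi-likelihood test on the whole table of 13318 genes that passed a filter on low counts, and a gene was called higher or lower at a Benjamini-Hochberg adjusted p under 0.05. The myeloid markers MPO, CD33 and SPI1 were present in non-treated cells, whereas AZU1, ELANE and PRTN3 were listed at 0 in all 12 libraries. Those at 0 are also listed on an alternate contig of the genome, and whether reads that map to several places were counted is not stated, so their absence from the cells cannot be read from this table. Among markers of other cell types, HBB and EPCAM were listed at 0 in all 12 libraries, COL1A1 stayed at or below 0.233 CPM, and CD3E lay between 0.55 and 3.06 CPM. The drug groups separated as labelled, since CD38 rose from at most 0.48 CPM in non-treated cells to at least 392 CPM with ATRA. DHRS3, another ATRA target gene, went from at most 0.12 CPM to at least 120. The ATRA target genes CYP26A1, with at most 2 counts in any library, and RARB, with at most 8, showed no such rise. MKI67, a proliferation marker, was at 639 to 707 CPM in non-treated cells, 1006 to 1043 with ATRA, 19.6 to 22.5 with CDK4/6i and 8.74 to 11.6 with CDK4/6i+ATRA. CD38, DHRS3 and MKI67 moved with the groups in which the members changed, and their part in the results was not tested. In such bulk RNA, fewer cells of a kind and less RNA per cell cannot be told apart.

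Of the 65 members, 61 passed the filter. The others were EIF1AY, EEF1A2, with 1 count in all libraries together, and EIF4A1 and EIF4E1B, which were listed at 0. EIF4A1 encodes the main eIF4A helicase, and all 1758 of its exon bases are shared on the same strand with the readthrough gene SENP3-EIF4A1, itself at 24 counts, so its level could not be read from this table. EEF1D, a subunit of eEF1B, held 123 counts in all. It is 1 of 6 members also listed on an alternate contig of the genome, and the other 5 (EEF1B2, EIF5A, EIF3K, EIF4A3 and EEF2K) held 5112 to 182847 counts. Pairs with nearly identical copies (EIF3C and EIF3CL, EIF2S3 and EIF2S3B, EIF5A and EIF5AL1) may share reads, as may EEF1A1 and its processed copies. The 159 pseudogene names held 134976 counts in all 12 libraries, against 3811905 for EEF1A1. Exon bases shared on the same strand with readthrough genes made up 74.2% of EIF4EBP3, 51.6% of EEF1AKMT4 and 34.3% of EEF1E1. On the opposite strand, EEF2KMT shared 39.8% of its exon bases with ALG1, EIF2B1 22.4% with DDX55 and EIF5B 14.8% with REV1, and whether reads were counted by strand is not stated.

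Most translation factor genes were lower in ATRA-treated cells. With ATRA, 48 of the 61 tested members were called lower and 3 higher (EIF1B, EIF4G3 and EIF4EBP2), where 35.5% of all tested genes were lower and 32.1% higher. The median log2 fold change of the members was −0.46, against −0.03 for all tested genes. With CDK4/6i the members were divided, with 22 higher and 26 lower at a median of −0.09. The background of this comparison was 28.3% of genes higher and 27.9% lower. No member changed 2-fold or more with CDK4/6i alone, and the log2 fold changes ran from −0.82 for EIF4EBP1 to 0.60 for EIF2A.

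With CDK4/6i+ATRA, 38 members were lower and 16 higher than in non-treated cells, where 40.7% of all tested genes were lower and 41.0% higher. The members' median was −0.47 against 0.02 for all tested genes, and 20 members changed at least 2-fold. The split depended on the scaling: with library size alone in place of TMM, 48 members were lower and 11 higher, while the median of all genes itself moved to −0.25 and that of the members to −0.73. In 25 members all 3 CDK4/6i+ATRA libraries lay below the other 9 libraries, and in 12 members they lay above them. The corresponding shares of all tested genes were 25.7% below and 28.3% above. These positions are on the TMM scale. Among the 12 above, library size alone put EIF4G2 at −0.14 against non-treated cells and EEF1B2 at −0.11 against CDK4/6i alone. EIF3F and EIF3H were then at −0.07 and −0.02 against CDK4/6i alone and not called. The members fell into 12 patterns of calls. In the 4 largest, 23 were lower under each of the 3 treatments, 8 were lower with ATRA and with both drugs but not called with CDK4/6i, 7 were lower with ATRA, higher with CDK4/6i and lower with both, and 6 were lower with ATRA but higher with CDK4/6i and with both. These patterns held 15.1%, 9.83%, 4.83% and 1.52% of all tested genes, and the other 8 patterns held 1 to 4 members each. Of the 23, 6 (EEF1AKMT1, EEF1AKMT3, EEF1E1, EEF2KMT, EIF4ENIF1 and EIF5AL1) lost their CDK4/6i call when 1 library or another was left out. In the pattern of 6 (EEF1B2, EEF1G, EEF2, EIF2A, EIF3E and EIF3F), library size alone ended the call with both drugs of EEF1B2 and EIF3E. It turned that of EIF2A to −0.09. EIF3F lost its ATRA call and EEF1B2 its CDK4/6i call when 1 library or another was left out. Only EIF4G3 among the 61 was higher under all 3 treatments, as were 13.5% of all tested genes, and only EIF2B2 was called in none of them, as were 9.36%.

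**Figure D1:**
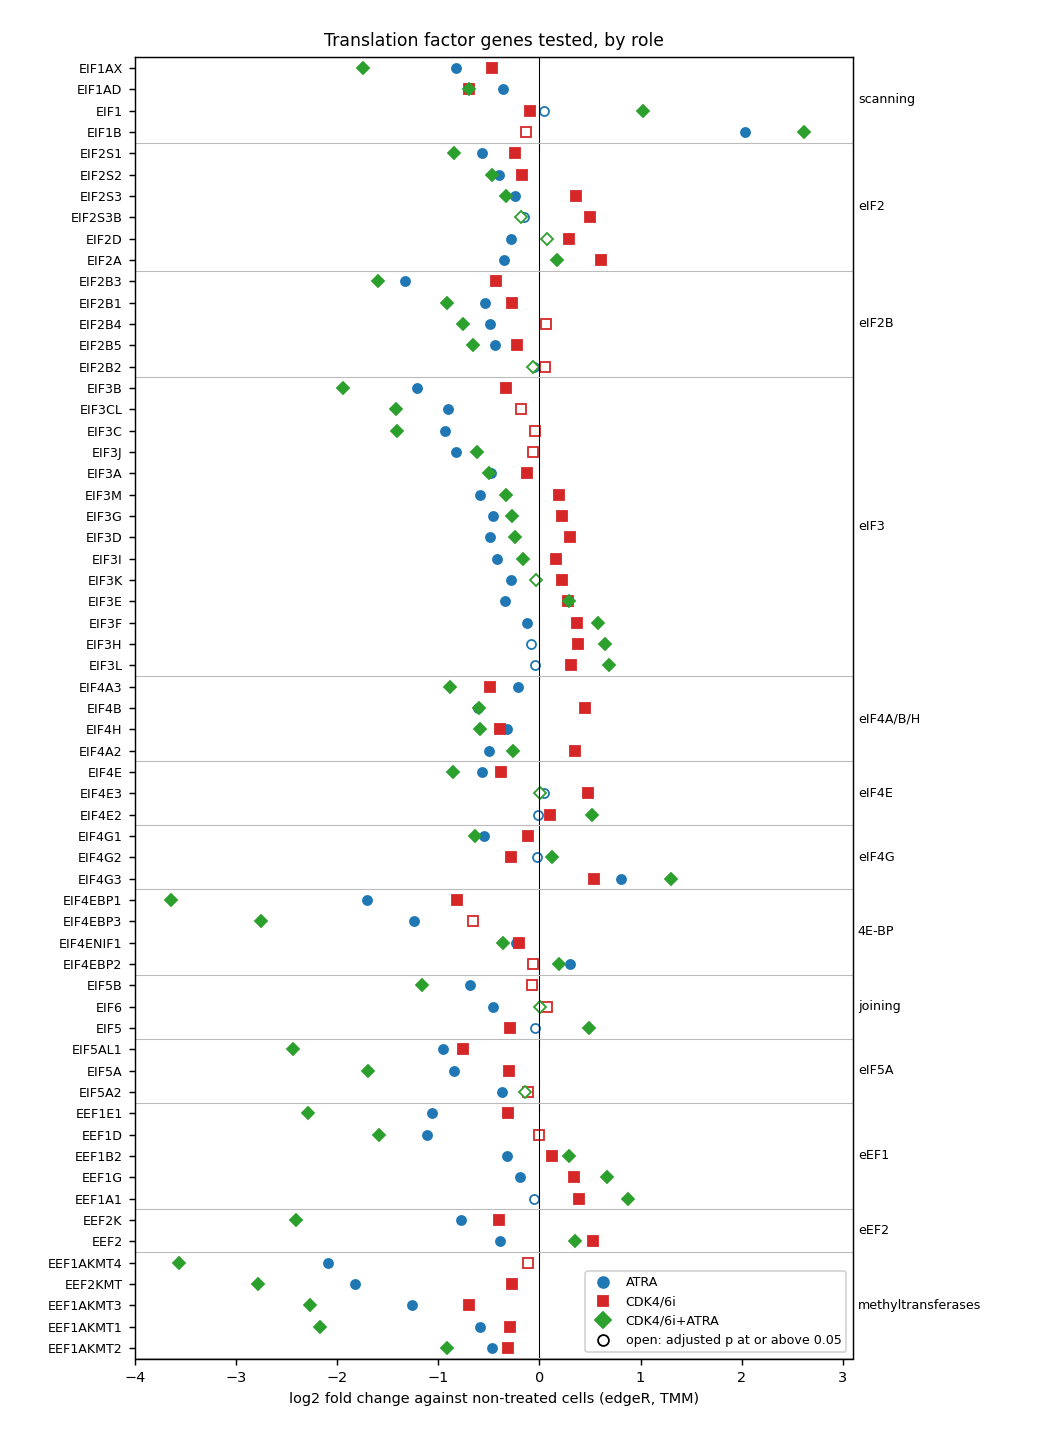
Log2 fold change against non-treated cells (x axis, edgeR with TMM scaling) of the 61 tested members (y axis), grouped by role, with circles for ATRA, squares for CDK4/6i and diamonds for CDK4/6i+ATRA, each from 3 libraries against 3. Filled symbols passed an adjusted p of 0.05, and the diamonds reach from −3.65 for EIF4EBP1 to 2.61 for EIF1B.

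The 65 members together took 4.32% ± 0.0636 (SD, n = 3) of the counts in non-treated cells, 3.80% ± 0.0593 under ATRA, 5.34% ± 0.0861 under CDK4/6i and 4.96% ± 0.185 under CDK4/6i+ATRA. The libraries of each treated group lay wholly on one side of the non-treated ones, and the two-sided exact permutation p was 0.1 in each of the 3 comparisons, the smallest that 3 against 3 libraries allow. Divided by the TMM-scaled library size instead, the shares were 4.17%, 3.56%, 5.11% and 5.76% in the same order, so whether CDK4/6i or both drugs gave the highest share depended on the scaling. EEF1A1 alone made up 39.4% ± 0.289 of the members' counts in non-treated cells and 52.4% ± 0.538 with CDK4/6i+ATRA. Per kilobase, EEF1A1 stood highest in non-treated cells at 4679 CPM, ahead of EEF2 at 2281 and EEF1G at 2256, which were close to each other. EEF1D had the lowest listed value of the tested members, at 0.0763 CPM per kilobase. It held 123 counts in all and is also listed on an alternate contig. Whether reads that map to several places were counted is not stated, so its level in the cells cannot be read from this value.

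The 4E-BP genes did not move together. EIF4EBP1, the best known of these repressors of eIF4E, was at 79.8, 76.6 and 75.1 CPM in non-treated cells and at 25.5, 21.2 and 24.1 with ATRA. It was at 46.6, 41.1 and 43.2 CPM with CDK4/6i and at 7.79, 4.46 and 6.20 with both drugs. No groups overlapped, and the libraries with both drugs were the lowest. The log2 fold change under both drugs was −3.65 ± 0.0972 (SE, adjusted p = 1.89e-35), the deepest fall of any member, against −1.71 with ATRA and −0.82 with CDK4/6i. EIF4EBP2, which encodes a related repressor, was instead higher with ATRA, at 305, 317 and 317 CPM against 269.8, 245 and 248 in non-treated cells. Its CDK4/6i libraries, at 255, 240.3 and 237 CPM, overlapped the non-treated ones. With CDK4/6i+ATRA it was at 279.9, 290.2 and 300.4 CPM, a log2 fold change of 0.19 ± 0.0402 that turned to −0.08 when libraries were scaled by size alone and was not called without the low-count filter (0.08).

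EIF4EBP3 was close to the detection limit, at 25, 21 and 36 counts in non-treated libraries, 11, 19 and 5 under ATRA, 18, 13 and 23 under CDK4/6i, and 1, 2 and 5 under both drugs. The CDK4/6i+ATRA libraries lay below the non-treated ones and did not overlap them. Its fitted log2 fold change was −2.76 ± 0.533 with CDK4/6i+ATRA and −1.24 ± 0.389 with ATRA, and the ATRA call rested on the library with 5 counts, without which it was −0.85 at an adjusted p of 0.0604. Per kilobase, EIF4EBP1 was the most abundant of the 3 in non-treated cells (93.3 CPM, against 34.0 for EIF4EBP2), and with CDK4/6i+ATRA the order was exchanged, with 7.4 for EIF4EBP1 and 38.7 for EIF4EBP2. EIF4ENIF1, a transporter that also binds eIF4E, had a log2 fold change of −0.36 with CDK4/6i+ATRA.

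The mRNA of the cap-binding protein fell less than that of EIF4EBP1. EIF4E was at 119, 119 and 111 CPM in non-treated cells, 80.5, 73.8 and 81.3 under ATRA, 89.1, 92.5 and 86.5 under CDK4/6i, and 63.1, 63.3 and 66.0 under both drugs. All treated libraries were below the non-treated ones, and the log2 fold change under both drugs was −0.86 ± 0.0495 (adjusted p = 2.03e-21). The ratio of EIF4EBP1 to EIF4E per kilobase was 2.41 in non-treated cells and 0.339 with CDK4/6i+ATRA, while that of EIF4EBP2 to EIF4E was 0.875 and 1.81. EIF4E2, a cap-binding homologue that does not assemble with eIF4G, was at 134, 129.6 and 117 CPM in non-treated cells, 125, 125 and 126 under ATRA, 140.4, 134 and 133 under CDK4/6i, and 179, 186 and 181 under both drugs. The CDK4/6i+ATRA libraries stood above the other 9, at 0.52 ± 0.0428 above non-treated cells on the log2 scale. The ratio of EIF4E to EIF4E2 per kilobase went from 1.21 to 0.462. EIF4E3 was higher only with CDK4/6i among the 3 treatments, at a log2 fold change of 0.48.

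The eIF4G scaffolds moved in opposite directions. EIF4G1, the main scaffold, was at 990.0, 988 and 983 CPM in non-treated cells, 667, 677 and 686 under ATRA, 908, 916 and 909 under CDK4/6i, and 646, 635 and 619.6 under both drugs. Each treated group lay below the non-treated libraries, and the log2 fold change under both drugs was −0.64 ± 0.0382. EIF4G3, a second scaffold of the same function, was at 119, 122 and 128 CPM in non-treated cells, 212, 217 and 218 under ATRA, 173, 184 and 179.9 under CDK4/6i, and 319, 299 and 295 under both drugs. No groups overlapped, and the level with both drugs was 2.47-fold that of non-treated cells, with a log2 95% interval of 1.22 to 1.38 (adjusted p = 9.81e-33). Within a library EIF4G1 was 9.14 times as abundant per kilobase as EIF4G3 in non-treated cells and 2.37 times with CDK4/6i+ATRA. EIF4G2, which lacks the eIF4E-binding part, went from 1237 ± 50.1 to 1351 ± 17.2 CPM with CDK4/6i+ATRA (SD, n = 3), a rise of 0.13 on the log2 scale that was lost without the low-count filter and turned negative with library size alone.

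The 4 tested genes of eIF4A helicases and their cofactors, EIF4A2, EIF4A3, EIF4B and EIF4H, all fell with CDK4/6i+ATRA, where 40.7% of all tested genes were lower. Their median log2 fold change was −0.60, and EIF4A2 fell least, at −0.26. EIF4A3, the eIF4A paralogue of the exon junction complex, fell most. It was at 262, 262 and 238 CPM in non-treated cells, 217, 213 and 225 under ATRA, 188, 177 and 177 under CDK4/6i, and 134, 142 and 136 under both drugs, and the groups did not overlap. The log2 fold change was −0.88 ± 0.0422. EIF4B, a cofactor of the helicase, went from 1096 ± 35.7 CPM in non-treated cells to 720.1 ± 17.9 with ATRA and 721 ± 37.7 with CDK4/6i+ATRA, but to 1496 ± 43.9 with CDK4/6i (SD, n = 3).

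**Figure D2:**
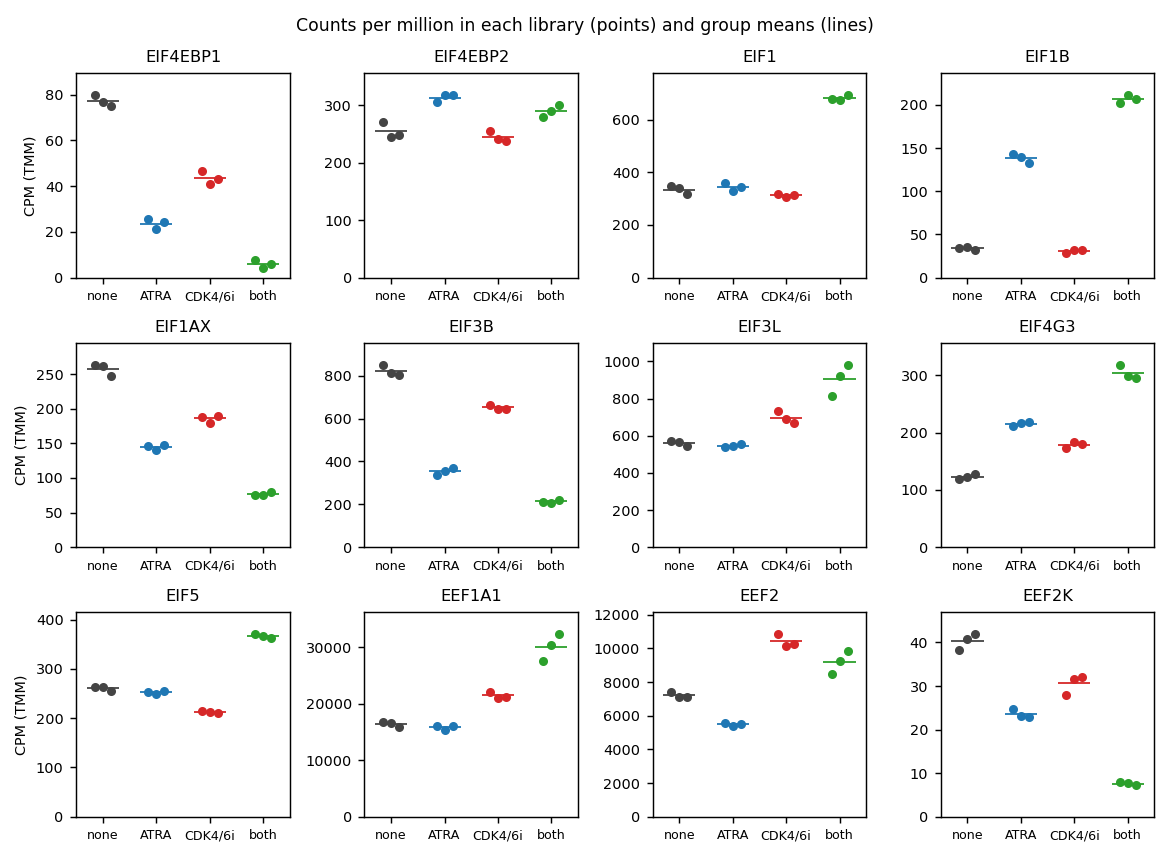
CPM after TMM scaling (y axis, from 0) in each of the 12 libraries for 12 members, with points for libraries, horizontal lines for group means, and the groups non-treated (none), ATRA, CDK4/6i and CDK4/6i+ATRA (both) on the x axis. EIF4EBP1 drops to between 4.46 and 7.79 CPM with both drugs, whereas EIF1 is at 673 to 692 with both and at 307 to 359 in the other 9 libraries.

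Among the scanning factors, EIF1 and its paralogue EIF1B both rose with CDK4/6i+ATRA, but with ATRA alone EIF1B rose and EIF1 was at 0.04 on the log2 scale and not called. EIF1 was called higher with ATRA, at 0.08, with library size alone or when only the groups compared were fitted. EIF1B was at 34.1, 35.1 and 32.3 CPM in non-treated cells and at 143, 139 and 133 with ATRA. It was at 28.6, 31.7 and 32.6 CPM with CDK4/6i and at 202, 211 and 207 with both drugs. The libraries with ATRA stood apart from those without it, with log2 fold changes of 2.03 ± 0.0501 for ATRA and 2.61 ± 0.0499 for CDK4/6i+ATRA (adjusted p = 1.21e-41), the largest rise of any member. EIF1, which guards the choice of start codon, was at 346, 341 and 316 CPM in non-treated cells, 359, 328 and 345 under ATRA, 319, 307 and 315 under CDK4/6i, and 678, 673 and 692 under both drugs. Here the 3 libraries with both drugs stood alone, at a log2 fold change of 1.03 ± 0.0393 (adjusted p = 1.12e-28), and the ATRA libraries overlapped the non-treated ones.

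The ratio of EIF1 to EIF1B per kilobase was 4.17 in non-treated cells, 1.05 under ATRA, 4.28 under CDK4/6i and 1.39 under both drugs. EIF1AX, which encodes eIF1A, moved the other way. It was at 263, 262 and 247 CPM in non-treated cells, 146, 141 and 148 under ATRA, 189, 179.7 and 189 under CDK4/6i, and 74.8, 75.4 and 80.2 under both drugs. The groups did not overlap, and the log2 fold change with both drugs was −1.74 ± 0.0433. EIF1AX was therefore at 29.9% of its non-treated level while EIF1 was at 2.04-fold and EIF1B at 6.12-fold.

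The subunits of eIF2, which carries the initiator tRNA, were not changed alike. EIF2S1, the alpha subunit that the eIF2 kinases phosphorylate, was at 117, 121 and 114 CPM in non-treated cells, 82.5, 75.3 and 79.6 under ATRA, 97.8, 97.7 and 101 under CDK4/6i, and 64.3, 66.6 and 65.2 under both drugs. Each treated group was below the non-treated one, with a log2 fold change of −0.84 ± 0.0476 for both drugs. EIF2S2 and EIF2S3, the beta and gamma subunits, were at −0.47 and −0.33. EIF2A, a separate factor used for initiation without eIF2, was at 172, 171 and 169 CPM in non-treated cells and at 139.8, 131 and 131 with ATRA, but at 265, 254 and 260.0 with CDK4/6i. It was at 185, 196 and 197 CPM with CDK4/6i+ATRA, above the non-treated libraries, with a log2 fold change of 0.17 ± 0.0394 that turned to −0.09 with library size alone and was no longer called without the low-count filter. The CDK4/6i rise of 0.60 ± 0.0375 was the largest of any member under that drug.

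In eIF2B, the exchange factor that reloads eIF2 with GTP, 4 of 5 subunits were lower with CDK4/6i+ATRA and none higher, with a median of −0.76, where 40.7% of all tested genes were lower. EIF2B3, the gamma subunit, was at 42.1, 48.8 and 42.2 CPM in non-treated cells, 17.01, 18.5 and 17.3 under ATRA, 31.4, 33.5 and 34.1 under CDK4/6i, and 14.6, 15.4 and 14.0 under both drugs. The CDK4/6i+ATRA libraries were the lowest, followed closely by those with ATRA, and the log2 fold change was −1.60 ± 0.0821. EIF2B2, the beta subunit, had a log2 fold change of −0.07 and was not called. EIF2B2 was also the least abundant of the 5 per kilobase in all 12 libraries.

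eIF3, the large scaffold of the small ribosomal subunit, did not change as a unit. Of its 14 genes, 12 were lower with ATRA and none higher, 9 were higher and 2 lower with CDK4/6i, and 4 were higher and 9 lower with CDK4/6i+ATRA. Of all tested genes, 32.1% were higher and 35.5% lower with ATRA, 28.3% and 27.9% with CDK4/6i, and 41.0% and 40.7% with both. EIF3B, which binds the ribosome in the complex's core, was at 851, 812 and 801 CPM in non-treated cells, 336, 357 and 367 under ATRA, 664, 647 and 644 under CDK4/6i, and 211, 208 and 221 under both drugs. The groups were far apart, and the log2 fold change with both drugs was −1.94 ± 0.0416 (adjusted p = 1.56e-39). EIF3L, a peripheral subunit, was at 573, 565 and 547 CPM in non-treated cells, 538, 543 and 557 under ATRA, 732, 690.1 and 669 under CDK4/6i, and 816, 922 and 982 under both drugs. Its ATRA libraries overlapped the non-treated ones, whereas on the TMM scale the 3 with both drugs were above the other 9. The log2 fold change with both drugs was 0.69 ± 0.0455. With library size alone it was 0.42, and 0.10 over CDK4/6i alone.

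EIF3E, EIF3F and EIF3H, with EIF3L the 4 eIF3 genes that rose with CDK4/6i+ATRA, had log2 fold changes of 0.29, 0.58 and 0.64, and with library size alone EIF3E was at 0.02 and not called. EIF3C and EIF3CL, the near-identical pair, were at −1.41 and −1.42. Over the 12 subunit genes without that pair, the coefficient of variation of the levels per kilobase was 50.1% to 50.4% in non-treated libraries, 54.5% to 55.0% with ATRA, 52.1% to 52.3% with CDK4/6i and 65.3% to 70.4% with CDK4/6i+ATRA. By this measure, with the deposited lengths, the subunits differed most from each other in the libraries with both drugs, and the 4 ranges did not overlap. The ratio of the highest to the lowest subunit was 6.30 to 6.62 in non-treated libraries and 6.54 to 7.07 with both drugs, which overlap. Both measures hold EIF3K too low, since its deposited length also counts an alternate contig. With its own exon bases alone the values would differ, so no change in this ratio is read from them. With the deposited lengths, EIF3G had the highest value per kilobase in non-treated libraries, and EIF3L in those with CDK4/6i+ATRA. On its 772 exon bases alone, EIF3K would stand above both.

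**Figure D3:**
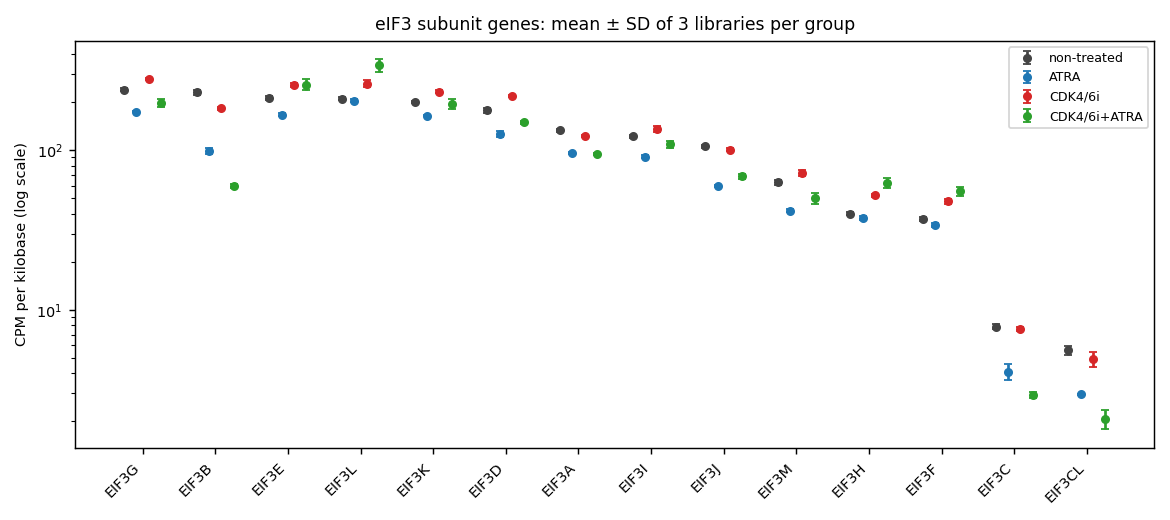
CPM per kilobase of exon (y axis, log scale) of the 14 eIF3 genes (x axis, ordered by their level in non-treated cells), shown as mean ± SD of 3 libraries in each of the 4 groups. EIF3B drops from 230.0 to 59.8 with CDK4/6i+ATRA while EIF3L rises from 210.1 to 339. EIF3K is drawn too low, since its deposited length also counts an alternate contig.

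The factors that act at and after start codon recognition also separated. EIF5, which makes eIF2 hydrolyse its GTP, was at 263, 263 and 256 CPM in non-treated cells, 253, 249 and 255 under ATRA, 216, 213 and 211 under CDK4/6i, and 371, 368 and 362 under both drugs. Like EIF1, it was highest in the 3 libraries with both drugs, although with CDK4/6i alone it fell by 0.29 on the log2 scale. The log2 fold change with both drugs was 0.49 ± 0.0355 (adjusted p = 1.01e-17). EIF5B, which joins the ribosomal subunits, was at 398, 412 and 393 CPM in non-treated cells, 245, 255 and 248 under ATRA, 381, 388 and 370.1 under CDK4/6i, and 187, 179 and 173 under both drugs. The libraries with ATRA, alone or in combination, lay far below the rest, and with both drugs EIF5B fell by 1.16 ± 0.0389 on the log2 scale. EIF6, which keeps the large subunit from joining early, had a log2 fold change of −0.46 with ATRA and 0.01 with CDK4/6i+ATRA.

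EIF5A, the hypusine-bearing factor that helps ribosomes through difficult peptide bonds, was at 517 ± 20.02 CPM in non-treated cells, 287 ± 1.77 under ATRA, 419 ± 13.5 under CDK4/6i and 159.8 ± 3.20 under both drugs (SD, n = 3), a log2 fold change of −1.69 for both drugs. Its paralogue EIF5A2 was at 19.1 ± 1.33 and 17.4 ± 1.26 CPM in non-treated and CDK4/6i+ATRA-treated cells and was not called. The ratio of EIF5A to EIF5A2 per kilobase went from 30.8 to 10.5. The deposited length of EIF5A also counts an alternate contig, and on its 3105 exon bases alone both ratios would be higher. EIF5AL1, an intronless copy of EIF5A that can take up its reads, held 40, 28 and 37 counts in non-treated libraries, 18, 22 and 15 under ATRA, 28, 14 and 23 under CDK4/6i, and 3, 1 and 9 under both drugs. The libraries with both drugs were the lowest, and the fitted log2 fold change was −2.44 ± 0.446.

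The 8 within-library ratios tested, each in 3 treated groups, made 24 exact two-sided permutation tests. In 23 of them, p was 0.1, the smallest that 3 against 3 libraries allow, and the adjusted p was 0.104, so no ratio could pass 0.05 with this test at 3 against 3 libraries. In the remaining test, the ratio of EIF1 to EIF1B with CDK4/6i, p was 1.

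With CDK4/6i+ATRA the elongation factor genes EEF1A1, EEF1G, EEF1B2 and EEF2 were higher, and EEF2K, the gene for a kinase that inhibits elongation, was lower. EEF1A1, which delivers aminoacyl-tRNA, was at 16858, 16609 and 15830.1 CPM in non-treated cells and at 16000.0, 15405 and 16097 with ATRA, so these groups overlapped. It was at 22181, 21056 and 21254 CPM with CDK4/6i and at 27691, 30410.1 and 32355 with both drugs. The log2 fold change was 0.39 ± 0.0520 with CDK4/6i and 0.88 ± 0.0524 with both drugs (adjusted p = 8.83e-21). The exchange factor subunits EEF1G and EEF1B2 rose with CDK4/6i+ATRA by 0.66 and 0.29 on the log2 scale. With library size alone EEF1B2 was at 0.03 and not called, and EEF2 was at 0.08. EEF1D, at 13 to 17 counts in non-treated libraries and 1 to 6 with CDK4/6i+ATRA, gave −1.59, and was not called without CDK4/6i+ATRA replicate 1 (−1.19), the library with 1 count.

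EEF1E1, a member by name that encodes a scaffold protein of the multi-tRNA synthetase complex, was at 22.0, 19.6 and 18.5 CPM in non-treated cells, 10.3, 8.16 and 10.3 under ATRA, 17.3, 15.2 and 15.6 under CDK4/6i, and 3.85, 4.46 and 3.97 under both drugs. Its groups did not overlap, and the log2 fold change with both drugs was −2.29 ± 0.133.

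EEF2, the translocase, was at 7377, 7108 and 7129.8 CPM in non-treated cells, 5590.4, 5374 and 5505 under ATRA, 10838, 10143 and 10272 under CDK4/6i, and 8457, 9262 and 9817 under both drugs. No groups overlapped, and EEF2 fell by 0.39 with ATRA on the log2 scale and rose by 0.53 with CDK4/6i and 0.35 with both drugs. EEF2K, the kinase that phosphorylates and stops eEF2, was at 38.2, 40.9 and 41.9 CPM in non-treated cells, 24.7, 23.1 and 22.9 under ATRA, 28.0, 31.7 and 32.1 under CDK4/6i, and 7.97, 7.67 and 7.19 under both drugs. The 3 libraries with both drugs were far below the others, and the log2 fold change was −2.41 ± 0.0938 (adjusted p = 2.21e-28). Relative to non-treated cells, EEF2 was thus at 1.27-fold and EEF2K at 0.188-fold with both drugs.

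All 5 genes for methyltransferases of eEF1A and eEF2 fell with CDK4/6i+ATRA, with a median log2 fold change of −2.27, where 40.7% of all tested genes were lower. EEF1AKMT4 was at 14.2, 14.8 and 14.9 CPM in non-treated cells, 2.90, 4.72 and 2.71 under ATRA, 12.9, 13.2 and 14.6 under CDK4/6i, and 1.37, 0.802 and 1.49 under both drugs. The CDK4/6i libraries overlapped the non-treated ones, and the log2 fold change with both drugs was −3.57 ± 0.199. EEF1AKMT1 was at 18.8, 15.7 and 15.7 CPM in non-treated cells, 9.68, 11.1 and 12.5 under ATRA, 12.9, 13.3 and 14.8 under CDK4/6i, and 3.48, 3.65 and 3.97 under both drugs. The libraries with both drugs were below all others, at a log2 fold change of −2.17 ± 0.142. With ATRA it was −0.58 and with CDK4/6i −0.29, the latter not called without non-treated replicate 1 (−0.20) or CDK4/6i replicate 1 (−0.26). EEF2KMT, EEF1AKMT3 and EEF1AKMT2 had log2 fold changes of −2.79, −2.27 and −0.92.

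Since the members that rose with CDK4/6i included many known TOP mRNAs, the bases at the annotated starts were examined, after these values had been seen. Of 9 members with known TOP mRNAs (EEF1A1, EEF1B2, EEF1D, EEF1G, EEF2, EIF3E, EIF3F, EIF3H and EIF4B), 8 were higher with CDK4/6i and none lower, beside 28.3% and 27.9% of all tested genes. With ATRA none were higher and 7 lower, beside 32.1% and 35.5% of all, and the ATRA calls of EEF1D and EIF3F were lost under several alternatives. With CDK4/6i+ATRA 7 were higher, EEF1B2 and EIF3E among them, and 2, EEF1D and EIF4B, lower, beside 41.0% and 40.7% of all. The RefSeq promoter table on GRCh38.p14 matched 52 of the 65 members, 49 of them tested. A pyrimidine start was defined as a C at the annotated first base followed by C or T to a run of at least 5 bases, at any annotated start of the gene.

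The windows below are shown as examples of members with a pyrimidine start and of members without one. Each runs 5′ to 3′ over 10 bases before and 20 bases from the annotated start, and capitals mark the run of C and T that begins at the start. The first 8 have a pyrimidine start and were called higher with CDK4/6i.
EEF1A1 (chr6:73521013-73521042, minus strand): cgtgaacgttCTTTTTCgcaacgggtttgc
EEF2 (chr19:3985444-3985473, minus strand): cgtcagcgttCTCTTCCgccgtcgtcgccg
EEF1B2 (chr2:206159885-206159914, plus strand): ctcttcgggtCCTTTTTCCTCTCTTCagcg
EIF4B (chr12:53006446-53006475, plus strand): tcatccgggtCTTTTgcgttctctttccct
EIF3F (chr11:7987327-7987356, plus strand): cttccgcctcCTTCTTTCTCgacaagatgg
EIF3D (chr22:36529147-36529176, minus strand): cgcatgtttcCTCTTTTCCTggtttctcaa
EIF2A (chr3:150546777-150546806, plus strand): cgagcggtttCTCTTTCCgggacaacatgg
EIF2S3 (chrX:24054946-24054975, plus strand): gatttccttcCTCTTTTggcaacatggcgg

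Members without such a start included factors that fell with CDK4/6i+ATRA and the scanning factors that rose with it. EEF1G, although a known TOP mRNA, did not meet the definition at its annotated start and was higher with CDK4/6i.
EIF1AX (chrX:20141819-20141848, minus strand): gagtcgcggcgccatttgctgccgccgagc
EIF3B (chr7:2354817-2354846, plus strand): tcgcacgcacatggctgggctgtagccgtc
EIF5B (chr2:99337379-99337408, plus strand): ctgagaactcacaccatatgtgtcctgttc
EEF2K (chr16:22206268-22206297, plus strand): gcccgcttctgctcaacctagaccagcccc
EIF1 (chr17:41688875-41688904, plus strand): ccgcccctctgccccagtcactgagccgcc
EIF1B (chr3:40309697-40309726, plus strand): cattttgtgcgagaagccgcagcgccgcct
EEF1G (chr11:62573872-62573901, minus strand): cgggcggcttactttgcggcagcgccgaga

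All 13 tested members with a pyrimidine start were called higher with CDK4/6i, at log2 fold changes of 0.12 to 0.60 and a median of 0.36. Besides the 8 shown, these were EIF2D, EIF2S3B, EIF3K, EIF3M and EIF4A2. Of the 36 tested members without it, 5 were higher and 20 lower, with a median of −0.21. EEF1B2, the smallest rise at 0.12, was not called without non-treated replicate 3 (0.10) or without CDK4/6i replicate 1 (0.09), which left 12 of 13. Among tested genes that are no members, 39.8% of the 737 with a pyrimidine start were higher with CDK4/6i, against 29.1% of the 9002 without it. A pyrimidine start was present in 7.66% of the tested genes in the table and in 5.14% of all its genes.

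With ATRA, 11 of the same 13 members were lower and none higher, and of the 36 others 27 were lower. EIF3F, at −0.12, was not called without non-treated replicate 1 or ATRA replicate 2 (both −0.10) or with DESeq2 or its size factors (both −0.09), which left 10 of 13. Among genes that are no members, 42.5% with a pyrimidine start and 37.6% without it were lower. With CDK4/6i+ATRA they ranged from −0.60 for EIF4B to 0.88 for EEF1A1, with 5 higher, 5 lower and a median of −0.03, and the 36 others had 8 higher, 24 lower and a median of −0.68. Among genes that are no members, 47.1% with a pyrimidine start were higher and 40.2% lower with both drugs, against 40.8% and 43.1% without it. With library size alone, 3 of the 13 were higher and 9 lower with both drugs, while all 13 stayed higher with CDK4/6i. These are counts over genes chosen with their values known, some of which share a copy (EIF2S3 and EIF2S3B), and carry no test. A match at an annotated start describes the annotation and not the start used in these cells. The E-box CACGTG, searched on both strands from 250 bases before to 50 after the start, was present in 13 of the 49 tested members, in 12.8% of tested genes and in 8.77% of all genes. Of these 13 members 9 were lower with CDK4/6i+ATRA, and of the 36 without it 20 were. Among genes that are no members, 53.8% with CACGTG and 41.2% without it were lower. The gap among the members is a few genes and was not tested. The amino acid response letters TGATGNAA were found in 1 tested member and 2.78% of tested genes.

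**Figure D4:**
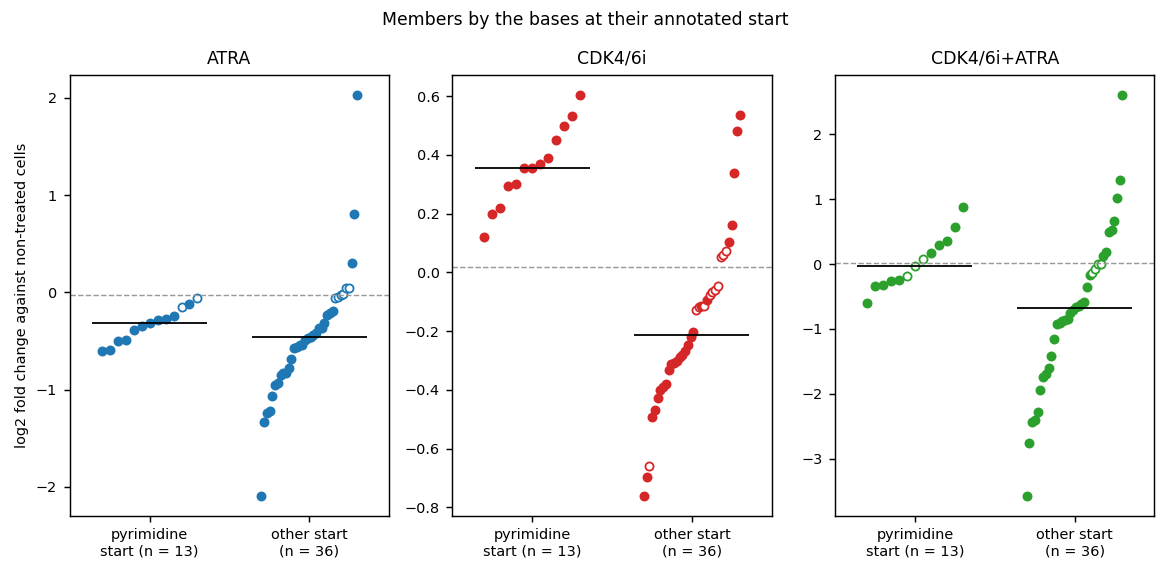
Log2 fold change against non-treated cells (y axis, a scale of its own in each panel) of the 13 tested members with a pyrimidine start and the 36 with another start, for ATRA, CDK4/6i and CDK4/6i+ATRA, with filled points for an adjusted p under 0.05. Solid lines are medians and the dashed line is the median of all 13318 tested genes, and with CDK4/6i all 13 points of the first group lie above it.

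With CDK4/6i+ATRA, 25 members were higher and 28 lower than with ATRA alone, where 36.9% of all genes were higher and 32.8% lower. With library size alone the split was 15 higher and 38 lower, at a median of −0.26 for all genes. Against CDK4/6i alone, 13 members were higher and 42 lower with CDK4/6i+ATRA, where 39.1% of all genes were higher and 39.5% lower, and the members' median was −0.48. With library size alone these counts were 8 and 49, at a median of −0.28 for all genes. EIF1B gave the largest rise over CDK4/6i alone, at 2.74, and EEF1AKMT4 the largest fall, at −3.46. Over ATRA alone, EIF1 rose most at 0.99 and EIF4EBP1 fell most at −1.94.

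The interaction of the drugs asks whether the effect of both departs from adding up those of each drug alone on the log2 scale. It was called in 35 of the 61 members, where 51.4% of all tested genes were called, a share near that of the members. It was higher in 17 members and lower in 18, where 24.5% of all genes were higher and 27.0% lower. With library size alone the counts were 7 and 39, while the median of all genes moved from −0.02 to −0.34, so the balance of directions depends on the scaling. The 4 highest interactions were EIF1 at 1.08 ± 0.0556, EIF5 at 0.83 ± 0.0504, EIF1B at 0.71 ± 0.0733 and EEF1A1 at 0.54 ± 0.0735 (SE). The 4 lowest were EEF1AKMT4 at −1.37 ± 0.286, EEF1AKMT1 at −1.29 ± 0.186, EEF2K at −1.23 ± 0.124 and EIF4EBP1 at −1.12 ± 0.137. All 8 kept their direction and their call with library size alone. In the same order, the 4 highest were then at 0.76, 0.51, 0.39 and 0.22, and the 4 lowest at −1.68, −1.61, −1.55 and −1.44. EIF4G3, which was at 1.75-fold with ATRA, 1.45-fold with CDK4/6i and 2.47-fold with both, had an interaction of −0.04 ± 0.0555, which did not pass. With library size alone its interaction was −0.36 and was called.

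Genes that act beside these factors, taken from lists by function, were also tested against non-treated cells, and their counts stand beside 41.0% of all tested genes higher and 40.7% lower with CDK4/6i+ATRA. Among 6 genes for eIF2 kinases and phosphatase subunits, 2 were higher and 4 lower with CDK4/6i+ATRA. PPP1R15A, the inducible subunit that directs dephosphorylation of eIF2, rose by 2.87 on the log2 scale, while the kinase genes EIF2AK4 and EIF2AK1 gave −1.02 and −0.94. Of 13 genes of the mTORC1, S6K and MNK arm, 4 were higher and 7 lower, led by MLST8 at −1.92, LARP1, a binder of TOP mRNAs, at −1.20, and MKNK1, a kinase of eIF4E, at 1.10.

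Among 5 genes for poly(A)-binding proteins and their partners, 2 were higher and 3 lower, with PABPC4 at −1.57, PAIP2B at −1.24 and PAIP1 at −0.74. Of 6 termination and recycling genes, 1 was higher and 3 lower. There ABCE1, which recycles ribosomes, was at −1.71, and the release factor genes GSPT2 and GSPT1 were at 1.69 and −1.48. Of 4 genes for helicases and other factors, 3 were tested, with DDX3X at 0.60 and RACK1 at 0.50 higher and DHX29 at −0.42 lower. The enzymes that make hypusine on eIF5A and diphthamide on eEF2 had 1 gene higher and 7 lower of 9, with DPH2 at −2.61, DPH1 at −1.22 and DPH7 at −1.16. Of 11 genes for selenocysteine insertion and mitochondrial translation, 2 were higher and 9 lower, with TSFM at −1.43, EEFSEC at −1.28 and MTIF2 at −1.28.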

How the data were processed

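RNA-Seq libraries were trimmed with Trimmomatic 0.33 and aligned to hg38 with STAR 2.7.11a, per the submitters' processing notes. The authors deposited raw counts per gene under the NCBI RefSeq annotation as whole numbers without normalization, in a layout with gene lengths and exon positions, and name RSEM. Groups were taken from the labels. The members and lists were chosen with earlier results of these data known.

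Genes were filtered with filterByExpr, scaled with TMM and tested in edgeR 4.0.16 (R 4.3.3) with a quasi-likelihood test on 4 group means over 12 libraries, with 8 residual degrees of freedom and Benjamini-Hochberg adjustment over 13318 genes. Ratios and shares were tested with two-sided exact permutation tests. Members named with values in every library were the EIF4EBP genes, in each role the largest rise and fall with CDK4/6i+ATRA, and the 4 highest and 4 lowest interactions with a mean of at least 5 CPM. From each list of other genes, the 3 largest changes were named. Start windows came from RefSeq (GRCh38.p14). Alternatives were DESeq2 1.42.0 and its size factors, library size alone, 2 other filters, the groups compared alone, a replicate block and leaving out each library. The tests were checked on simulated counts. A floor of 3 counts was 0.156 to 0.275 CPM. One listed marker of another cell type is not reported here.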

Additional observations from a re-analysis of the deposited data

Results flagged for a closer look

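In 35 of the 61 tested members the effect of ATRA with CDK4/6i differed from its effect without CDK4/6i by edgeR's interaction test (adjusted p under 0.05), as it did in 51.4% of all tested genes. The values are log2 differences between these 2 effects, at 8 residual degrees of freedom. Positive differences were found for EIF1 (1.08), EIF5 (0.83), EIF1B (0.71), EIF6 (0.39) and EIF1AD (0.36). They were also found for the elongation factor genes EEF1A1 (0.54), EEF1G (0.52), EEF1B2 (0.49) and EEF2 (0.21). The eIF3 genes among them were EIF3L (0.42), EIF3H (0.35), EIF3E (0.34), EIF3F (0.33) and EIF3J (0.27). Further positive differences were those of EIF4E2 (0.44), EIF4G2 (0.44) and EIF5A2 (0.34), while EIF4E (0.09) and EIF4G1 (0.02) were not called.

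Negative differences were found for the methyltransferase genes EEF1AKMT4 (−1.37), EEF1AKMT1 (−1.29) and EEF2KMT (−0.69), for EEF2K (−1.23), EIF4EBP1 (−1.12) and EEF1E1 (−0.91), and for EIF5A (−0.54). They were smaller for the eIF2 and eIF2B genes EIF2S3B (−0.53), EIF2S3 (−0.44) and EIF2B4 (−0.33), for EIF4E3 (−0.52), EIF4B (−0.45), EIF4A3 (−0.18) and EIF4A2 (−0.12), for EIF1AX (−0.45) and EIF5B (−0.39), and for EIF3C (−0.43) and EIF3B (−0.39). When libraries were scaled by size alone, 25 of these 35 calls remained. EEF2 was then called negative (−0.11), and 9 positive calls were lost, those of EIF1AD, EIF3E, EIF3F, EIF3H, EIF3J, EIF3L, EIF4E2, EIF5A2 and EIF6, at −0.04 to 0.12. With TMM scaling, 24.5% of all tested genes had a positive and 27.0% a negative call.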

How the results depend on the processing

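The number of members called in either direction, in each of the 5 comparisons and the interaction, stayed within 1.5 times its main value under every alternative run. Scaling by library size alone reversed 6 values of the members given in every library. Against non-treated cells with CDK4/6i+ATRA, EIF4EBP2 gave −0.0759 and EIF2A −0.0926, and EIF4EBP2 gave −0.0287 against CDK4/6i alone. The interactions of EIF4E, EIF4G1 and EEF2 were −0.230, −0.298 and −0.111. Of the other members, those called in the opposite direction were EIF4G2 against non-treated cells (−0.136), EIF3G, EIF3J and EIF4G2 against ATRA (−0.123, −0.0986 and −0.151) and EEF1B2 against CDK4/6i (−0.108). Under that scaling the median of all genes moved to −0.25 with CDK4/6i+ATRA and to −0.34 for the interaction. The members called higher and lower were then 15 and 38 in place of 25 and 28 against ATRA, 8 and 49 in place of 13 and 42 against CDK4/6i, and 7 and 39 in place of 17 and 18 for the interaction. The log2 ratio of EIF1 to EIF1B with CDK4/6i minus non-treated, 0.0363, ranged from −0.0308 to 0.0718 when 1 library was left out, and was negative without CDK4/6i replicate 1.

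Same-numbered libraries of different groups did not deviate together, with correlations of −0.114 to 0.0702 in 18 pairs. With the replicate block, the members called higher and lower were 3 and 48 with ATRA, 22 and 24 with CDK4/6i, 16 and 38 with both drugs, and 17 and 17 for the interaction. The calls lost under the block were EIF1 and EIF5AL1 with CDK4/6i, EIF2S3 with CDK4/6i+ATRA against ATRA, and the interaction of EIF4A2. Without the low-count filter, 13 members were higher and 40 lower with CDK4/6i+ATRA.

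Some member calls were lost when 1 library was left out. With ATRA these were 5, EEF1D without non-treated replicate 3, ATRA replicate 2 or ATRA replicate 3 (−0.98 to −1.11), EIF4ENIF1 without non-treated replicate 2 (−0.18), EIF5AL1 without ATRA replicate 3 (−0.79), and EIF3F and EIF4EBP3 as given above. EEF1D was also not called with DESeq2 (−1.09) or without the low-count filter (−1.13). With CDK4/6i they were 9. EIF4E2 was not called without non-treated replicate 3 (0.05), CDK4/6i replicate 1 (0.07) or CDK4/6i replicate 2 (0.11), and EEF1E1 was not called without non-treated replicate 1 (−0.24). EEF1AKMT3 was not called without non-treated replicate 2 (−0.52) or CDK4/6i replicate 1 (−0.67). EIF4ENIF1 was not called without non-treated replicate 2, CDK4/6i replicate 1 or CDK4/6i replicate 3 (−0.16 to −0.18). EEF2KMT was not called without non-treated replicates 1 or 3 or any CDK4/6i replicate (−0.24 to −0.29), EIF1 without non-treated replicates 1 or 2 or CDK4/6i replicates 2 or 3 (−0.07 to −0.10), and EIF5AL1 without non-treated replicates 1 or 3 or CDK4/6i replicates 2 or 3 (−0.57 to −0.83). DESeq2 did not call EEF2KMT, EIF4ENIF1, EIF1 or EIF5AL1 with CDK4/6i either. The other 2 were EEF1AKMT1 and EEF1B2, as given above.

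With both drugs, only EEF1D lost its call in this way, against non-treated cells and against CDK4/6i (−1.18), both without CDK4/6i+ATRA replicate 1. Against ATRA 7 members did, EEF1AKMT3, EIF2S3, EIF4EBP2, EIF4EBP3, EIF4G1, EIF5A2 and EIF5AL1. The interaction of EIF4A3 was not called without CDK4/6i replicate 1 (−0.14), that of EEF2KMT without ATRA replicate 3 or CDK4/6i+ATRA replicate 3 (both −0.54), and that of EIF4A2 when any 1 of 9 libraries was left out (−0.10 to −0.13). The interaction of EIF5A2 was not called without non-treated replicate 1 (0.29), ATRA replicate 1 (0.31) or CDK4/6i+ATRA replicate 2 (0.31), with DESeq2 (0.32) or without the low-count filter (0.26), which also ended the interaction calls of EEF2 (0.13) and EIF1AD (0.27). EEF1AKMT3, EEF1D, EIF4EBP3 and EIF5AL1 held 1 to 9 counts in each library with both drugs, where counting error is large.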
